A study of Arabidopsis thaliana with 38 samples.

Results

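RNA from nuclei of the suspensor was compared with RNA from nuclei of the whole embryo in Arabidopsis thaliana at the late globular stage, 100 h after pollination. The comparison took 7 of the 38 arrays in the study, chosen by their labels: 3 arrays of suspensor nuclei (group SUS_LG) and 4 of whole-embryo nuclei (EMB_LG). Plants of both groups were grown on soil at 22 °C in long days. Nuclei were captured with INTACT, a system with 2 components that tags the nuclei of chosen cells, and each replicate was a pool of nuclei, so that a p-value here reflects how pools vary. Other groups served as context: vascular cells (VSC_LG, 4 arrays), ground tissue cells (GSC_LG, 3) and the group labelled QC (QC_LG, 3) at 100 h, and the suspensor (SUS_EG, 3) and whole embryo (EMB_EG, 4) of the early globular stage at 81 h. No plant line is named in the labels, which also leave unstated the promoters that drove the tag and whether whole-embryo nuclei include those of the suspensor. In such pools, fewer cells of a type and less RNA per cell cannot be told apart.

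The suspensor is the filament that descends from the basal daughter of the zygote and joins the embryo to maternal tissue. It is known as a route for nutrients and hormones into the young embryo, and it stops dividing early and is removed by programmed cell death while the embryo proper goes on to form leaves and root. WOX8 and WOX9, homeobox genes of the basal lineage, and the auxin response genes IAA10 and ARF13 are classical markers of its cells, whereas plastid genes are switched on as the embryo proper greens.

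Each of 27826 loci has 1 intensity per array, taken here to log2. The medians of the 7 arrays lay between 2.50 and 2.61, so that a level near 2.5 is that of the average locus. Suspensor arrays correlated with each other at r = 0.767 to 0.794 across loci, whole-embryo arrays at 0.768 to 0.815, and arrays of the 2 groups at 0.726 to 0.747. These correlations run across loci, which are not independent replicates.

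The label was checked against 10 markers of suspensor identity and of the zygotic pathway that forms it. As a set these genes were not higher in the suspensor. The check did not settle the label, so that suspensor here means the nuclei so labelled. Of the 10 genes, 0 passed the test in either direction, against 0.539% of all loci called higher and 0.428% called lower. At those shares a list of 10 would hold few calls or none, so the count of 0 says little. Values of WOX8 (AT5G45980) were 3.46, 1.93 and 2.30 on the suspensor arrays and 1.68, 1.89, 1.45 and 2.72 on the whole-embryo arrays, a difference of 0.63 ± 0.41 (SE, adjusted p = 0.673). Suspensor array 1 stood above every whole-embryo array for WOX8 and the other suspensor arrays lay among them. WOX9, which the gene table lists as HB-3 (AT2G33880), read 5.21, 2.19 and 3.02 against 3.11, 3.21, 3.03 and 3.70, a difference of 0.21 ± 0.47 (SE, adjusted p = 0.955). For WOX9, suspensor array 1 lay above every whole-embryo array and the other suspensor arrays lay below every one. IAA10 (AT1G04100), a repressor of auxin response, differed by 0.53 and RKD4 (AT5G53040), a transcription factor needed for the first divisions of the zygote, by 0.41. ARF9 (AT4G23980) and ARF13 (AT1G34170), auxin response factors, differed by 0.06 and -0.55. The kinases SSP (AT2G17090) and YDA (AT1G63700), which act upstream of suspensor fate, differed by -0.26 and -0.56, the auxin exporter PIN7 (AT1G23080) by -0.64 and the homeobox gene HDG11 (AT1G73360) by -0.97. The list's median was -0.10 (-0.35 without suspensor array 1 and 0.041 without whole-embryo array 2), beside -0.02 over all loci, and its mean level ran from 2.38 to 2.71 on the suspensor arrays and from 2.31 to 2.95 on the whole-embryo arrays, close to the array medians.

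In the test over all loci, limma called 150 loci higher in the suspensor (0.539% of 27826) and 119 lower (0.428%), 0.967% together, at an adjusted p under 0.05. A total of 2958 loci had an unadjusted p under 0.05. Against the mean of VSC_LG, GSC_LG and QC_LG, 8 of the 150 rises and 1 of the 119 falls were also called in the same direction. The difference had the same sign there for 149 of the rises and 106 of the falls. Both comparisons use the suspensor arrays by which these loci were selected. The shared sign is thus partly built in and is no independent support. The called differences were at least 2-fold in every case, with a median of 4.52-fold among the rises and 3.9-fold among the falls. The suspensor and whole-embryo arrays did not overlap for 144 of the rises and 114 of the falls. Over all loci, non-overlapping arrays occurred for 5.01% with the suspensor higher and 5.4% with it lower. The calls come from these same arrays, so the lack of overlap follows largely from the selection and adds no support. The counts leaned on single arrays: 19 rises and 35 falls were called without suspensor array 2, 56 and 30 without suspensor array 3, 79 and 68 without whole-embryo array 1, 72 and 64 without whole-embryo array 3, and 93 and 65 without whole-embryo array 4. Where a call named here ended with 1 of the 7 arrays left out, the array that left the highest adjusted p stands beside the gene with that value. Many of these calls ended without other arrays too, as in 6 of the 7 such fits for TT2, MCM6, CPK32 and DGK1. The other calls of this comparison named here by gene kept an adjusted p under 0.05 in all 7 such fits. At the threshold, LOX4 (AT1G72520), a lipoxygenase, lay just inside with an adjusted p of 0.049 (0.289 without suspensor array 2) and LPR2 (AT1G71040) just outside with 0.0509. The call of LOX4 ended in all 7 fits with 1 array left out.

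The genes that rose with a call kept in every fit with 1 array left out included a kinase, an oxidase, a synaptotagmin and a hormone receptor. CPK28 (AT5G66210), a calcium-dependent protein kinase that tunes immune receptor signalling, read 5.59, 7.19 and 6.47 on the suspensor arrays and 3.35, 2.64, 2.93 and 2.61 on the whole-embryo arrays. Its lowest suspensor value lay more than 2 log2 units above its highest whole-embryo value, and the difference was 3.53 ± 0.50 (SE, adjusted p = 0.000173). RBOH F (AT1G64060), an NADPH oxidase that releases superoxide at the plasma membrane, read 5.17, 5.32 and 5.42 against 2.25, 2.12, 3.07 and 3.08. The suspensor arrays of RBOH F lay closer together than the whole-embryo arrays did, and the difference was 2.67 ± 0.46 (SE, adjusted p = 0.00232). SYTC (AT5G04220), a synaptotagmin with lipid-binding domains, read 5.18, 4.62 and 4.66 against 1.81, 2.81, 2.29 and 2.97, a difference of 2.35 ± 0.37 (SE, adjusted p = 0.000637). NPR3 (AT5G45110), a receptor for the defence hormone salicylic acid, stood at 6.74 ± 0.57 in the suspensor (SD, n = 3) and 3.83 ± 0.40 in the whole embryo (SD, n = 4) and rose by 2.91 ± 0.49 (SE, adjusted p = 0.00173).

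The mitochondrial dicarboxylate carriers UCP5 (AT2G22500) and DIC2 (AT4G24570), which move organic acids across the inner membrane, both rose. UCP5 read 6.49, 7.77 and 7.69 on the suspensor arrays and 4.46, 3.26, 4.80 and 3.63 on the whole-embryo arrays, a difference of 3.28 ± 0.44 (SE, adjusted p = 0.000121). DIC2 read 8.32, 9.01 and 8.88 against 6.54, 6.70, 6.90 and 6.30 and rose by 2.12 ± 0.29 (SE, adjusted p = 0.000121). SZF1 (AT3G55980), a zinc finger protein of the salt stress response, read 6.51, 6.12 and 5.96 against 3.49, 3.93, 4.11 and 2.86 and rose by 2.60 ± 0.36 (SE, adjusted p = 0.000172). In the other late globular cell types the mean levels lay between those of the whole embryo and the suspensor: CPK28 stood at 5.20 ± 0.57 in VSC_LG (SD, n = 4), 5.34 ± 0.89 in GSC_LG (n = 3) and 4.45 ± 1.16 in QC_LG (n = 3), and UCP5 at 6.08 ± 0.56, 6.18 ± 0.51 and 5.42 ± 0.97. Against the mean of those cell types, the suspensor's differences for CPK28, UCP5, NPR3, RBOH F, SZF1 and DIC2 were 1.42, 1.42, 1.18, 1.39, 0.96 and 0.96, and these did not pass the test (adjusted p = 0.246, 0.159, 0.388, 0.202, 0.301 and 0.138).

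**Figure D1:**
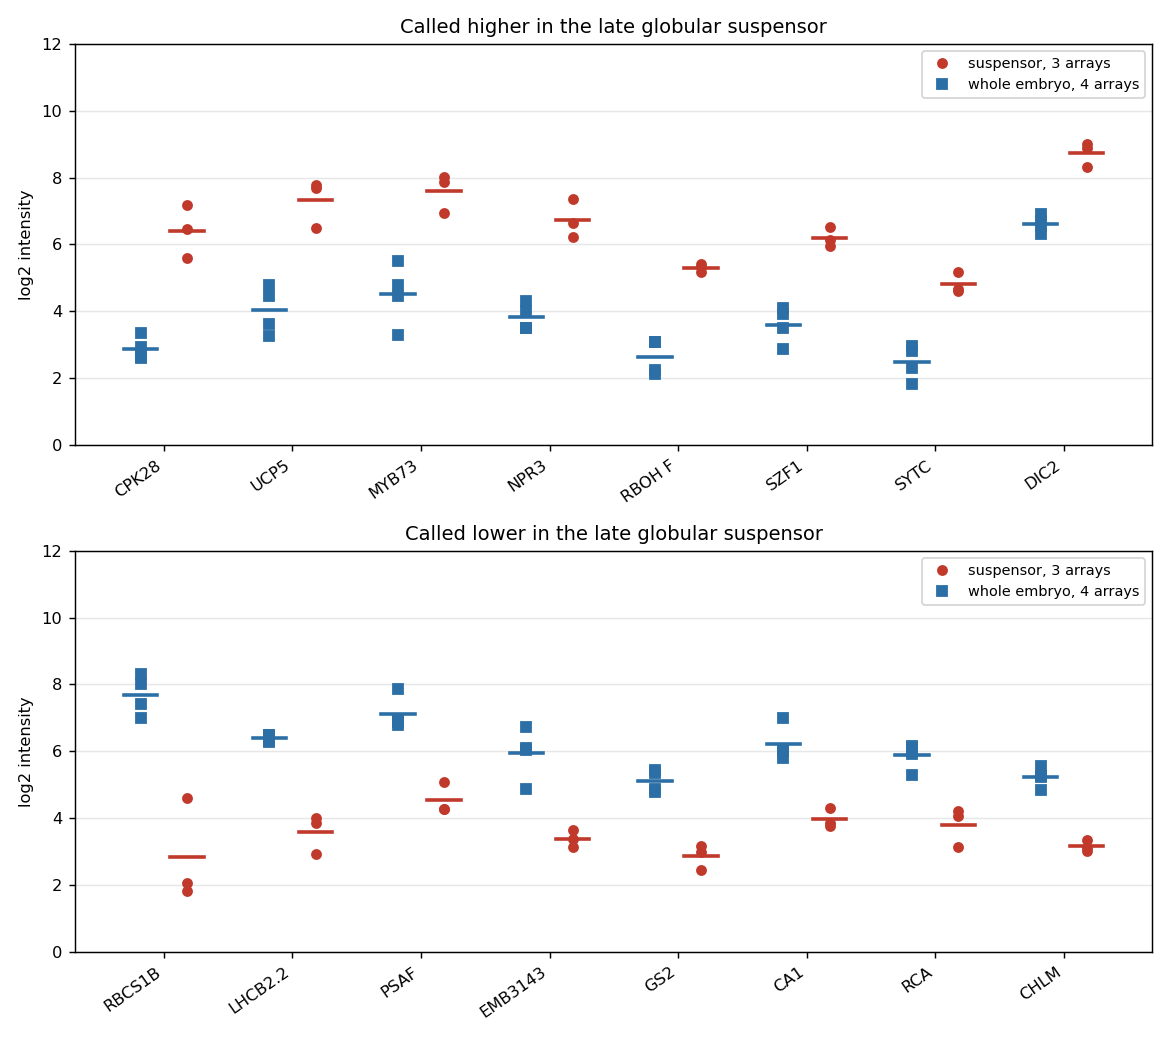
Log2 intensity of 16 called loci on each array of the late globular stage, with circles for the 3 suspensor arrays, squares for the 4 whole-embryo arrays and a bar at each group's mean. For the 8 genes in the upper panel every suspensor array lies above every whole-embryo array, and for the 8 in the lower panel every suspensor array lies below; RBCS1B shows the widest gap, -4.86 between the means.

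Further genes for kinases, lipid enzymes and membrane proteins rose with calls that rested on single arrays, so their highest adjusted p with 1 array left out is given beside them. PLDBETA1 (AT2G42010), a phospholipase D, rose by 2.72 ± 0.56 (SE, adjusted p = 0.011), with 0.169 without suspensor array 2. The diacylglycerol kinases DGK2 (AT5G63770) and DGK1 (AT5G07920) rose by 2.29 and 1.96, with 0.0681 without suspensor array 2 and 0.268 without suspensor array 3. BON3 (AT1G08860), a copine that binds membranes under calcium, and BAP1 (AT3G61190), a partner protein of the copines, rose by 2.59 and 1.96, with 0.0987 without suspensor array 2 and 0.162 without suspensor array 2. The other 3 copine and partner genes did not pass the test. ACA1 (AT1G27770), a calcium pump, rose by 2.22, with 0.0681 without suspensor array 2, and CPK32 (AT3G57530), another calcium-dependent kinase, by 2.64, with 0.309 without suspensor array 2. Of 29 such kinases, 2 rose and 0 fell, against 0.539% of all loci called higher, with a median of 0.14. RIPK (AT2G05940), a kinase that acts in defence, rose by 2.64 ± 0.52 (SE, adjusted p = 0.00797), with 0.0569 without suspensor array 3. PEPR1 (AT1G73080), a receptor for danger peptides, rose by 2.54, with 0.284 without suspensor array 2, and ACS6 (AT4G11280), an enzyme of ethylene synthesis, by 2.11, with 0.0884 without suspensor array 2. Of 67 WRKY factors, the transcription factor family best known from defence, 0 passed the test, and their median was -0.07. Over all loci 0.967% were called in either direction. At that share a set of 67 would hold few calls or none, so the count of 0 says little. These families were chosen after their values were seen.

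MYB73, MYB70 and MYB77, transcription factors of the R2R3 subgroup that also holds MYB44 and is known from abscisic acid and auxin responses, were all called. Over all loci 0.539% were called higher. This set of 4 genes was chosen after its values were seen, so its count of calls is no test of the subgroup. MYB73 (AT4G37260) read 6.93, 7.86 and 8.01 on the suspensor arrays and 4.45, 4.78, 3.29 and 5.50 on the whole-embryo arrays, a difference of 3.10 ± 0.53 (SE, adjusted p = 0.00232). MYB70 (AT2G23290) read 7.05, 6.27 and 5.70 against 3.56, 3.11, 3.15 and 3.66 and MYB77 (AT3G50060) read 5.85, 6.31 and 5.88 against 3.60, 2.91, 3.23 and 3.48. All 3 genes had whole-embryo values that did not reach the suspensor values. The differences were 2.97 ± 0.64 (SE, adjusted p = 0.0153) and 2.71 ± 0.57 (SE, adjusted p = 0.0116), and these calls ended without single arrays, with 0.0818 without suspensor array 1 and 0.0887 without suspensor array 2. Against the mean of the other late globular cell types, MYB73, MYB70 and MYB77 differed by 1.59, 1.35 and 1.27 and did not pass (adjusted p = 0.203, 0.513 and 0.448). MYB44, listed as MYBR1 (AT5G67300), differed by 0.58 ± 0.39 (SE, adjusted p = 0.693). The NAC factors NTM1 (AT4G01540), NAC062 (AT3G49530) and NAC019 (AT1G52890) rose by 2.83, 2.26 and 1.98. Their highest adjusted p with 1 array left out was 0.245 without suspensor array 3, 0.113 without suspensor array 2 and 0.239 without suspensor array 2. NAC062 and NAC019 were picked after their values were seen, and the NAC family was not counted as a whole. PUM12 (AT5G56510), an RNA-binding protein of the Pumilio family, rose by 3.24 ± 0.65 (SE, adjusted p = 0.00827), with 0.07 without suspensor array 2. AtIPCS1 (AT3G54020), an enzyme of sphingolipid synthesis, rose by 2.63, with 0.282 without suspensor array 2.

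Among the rises with no symbol in the gene table, AT2G04034 read 5.01, 6.06 and 7.88 against 1.35, 2.00, 2.66 and 1.54 and differed by 4.43 ± 0.94 (SE, adjusted p = 0.0126), AT5G63085 differed by 3.99 ± 0.85 (SE, adjusted p = 0.0133), and AT3G27540 by 3.38 ± 0.60 (SE, adjusted p = 0.00331). AT5G11070 read 6.57, 7.88 and 8.14 against 2.34, 5.49, 4.00 and 2.87, with the whole-embryo arrays spread over more than 3 log2 units, and differed by 3.85 ± 0.64 (SE, adjusted p = 0.00173). The highest adjusted p with 1 array left out was 0.125 without suspensor array 3 for AT2G04034, 0.217 without suspensor array 2 for AT5G63085, 0.0521 without suspensor array 2 for AT3G27540 and 0.023 for AT5G11070.

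Of 18 genes known to respond quickly to touch, wounding or jasmonate, 4 rose and 0 fell, against 0.539% of all loci called higher. TCH2 (AT5G37770), a calmodulin-like protein, read 7.43, 8.53 and 7.02 on the suspensor arrays and 5.41, 6.12, 6.29 and 6.48 on the whole-embryo arrays. TCH4 (AT5G57560), a xyloglucan-modifying enzyme of the cell wall, read 4.94, 6.79 and 6.41 against 4.20, 2.33, 2.30 and 5.15, with 1 whole-embryo array above the lowest suspensor array. JAZ1 (AT1G19180), a repressor of jasmonate response, rose by 2.09 ± 0.44 (SE, adjusted p = 0.0113), and the zinc finger gene ZAT12, listed as RHL41 (AT5G59820), by 2.29 ± 0.51 (SE, adjusted p = 0.0183). The differences of TCH2 and TCH4 were 1.58 ± 0.36 (SE, adjusted p = 0.0206) and 2.56 ± 0.66 (SE, adjusted p = 0.0487). Without suspensor array 2 the adjusted p of TCH2, TCH4, JAZ1 and RHL41 was 0.251, 0.285, 0.142 and 0.185, so that 0 of 18 were then called, and 1 of 18 was called without suspensor array 3. The list's median was 0.94, and 14 of its genes lay above 0. Its mean level was 4.21 ± 0.40 (SD, n = 3) in the suspensor and 3.20 ± 0.27 (SD, n = 4) in the whole embryo. The other late globular cell types had levels of 4.14 ± 0.37 (VSC_LG), 4.20 ± 0.21 (GSC_LG) and 3.98 ± 0.46 (QC_LG), and against their mean 0 of 18 genes were called in the suspensor and the median was 0.00.

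Genes of photosynthesis made up the main group of falls. Of 30 genes for photosystem subunits, antenna proteins, Rubisco and its helpers, 20 fell and 0 rose, against 0.428% of all loci called lower. All 30 differences lay below 0, from -4.86 to -0.17, with a median of -1.82 against -0.02 over all loci, and 24 had arrays that did not overlap. With single arrays left out, 11 to 16 of the 30 were called, and the median stayed between -1.94 and -1.71.

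RBCS1B (AT5G38430), a small subunit of the carbon-fixing enzyme Rubisco, had the largest fall. It read 1.81, 4.60 and 2.06 on the suspensor arrays and 7.0, 8.30, 8.0 and 7.43 on the whole-embryo arrays. Suspensor array 2 was well above the other suspensor arrays, yet below every whole-embryo array, and the difference was -4.86 ± 0.57 (SE, adjusted p = 1.67e-05). Its near-identical relatives RBCS1A (AT1G67090), RBCS3B (AT5G38410) and RBCS2B (AT5G38420) differed by -1.34 ± 0.30 (SE, adjusted p = 0.0174), -1.97 ± 0.39 (SE, adjusted p = 0.00799) and -0.82 ± 0.57 (SE, adjusted p = 0.706). RBCS1A read 6.25, 6.59 and 6.11 against 7.44, 7.61, 7.89 and 7.70. The 4 genes share much of their sequence, so how their signals divide among them is uncertain. The calls of RBCS1A and RBCS3B ended without single arrays, with 0.106 without suspensor array 3 and 0.0728 without suspensor array 1. RCA (AT2G39730), the activase that reopens Rubisco, fell by 2.08 and CA1 (AT3G01500), a carbonic anhydrase, by 2.24 on the log2 scale (adjusted p = 0.000913 and 0.00098).

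Both photosystems took part. PSAF (AT1G31330), which docks plastocyanin to photosystem I, read 4.28, 5.08 and 4.27 on the suspensor arrays and 6.87, 6.80, 7.87 and 6.96 on the whole-embryo arrays, a difference of -2.58 ± 0.36 (SE, adjusted p = 0.000172). PSAL (AT4G12800) and PSAG (AT1G55670), further subunits of photosystem I, differed by -2.11 ± 0.36 (SE, adjusted p = 0.00232) and -2.15 ± 0.39 (SE, adjusted p = 0.00412). PSBR (AT1G79040), a subunit of photosystem II, read 4.38, 4.86 and 5.01 against 6.55, 6.60, 7.03 and 7.25, a difference of -2.11 ± 0.37 (SE, adjusted p = 0.00241). Of the antenna genes, which carry chlorophyll, LHCB2.2 (AT2G05070) read 4.01, 2.93 and 3.85 against 6.29, 6.50, 6.50 and 6.29, with whole-embryo arrays that nearly coincided, and differed by -2.80 ± 0.42 (SE, adjusted p = 0.000398). LHCB5 (AT4G10340) differed by -2.17 ± 0.39 (SE, adjusted p = 0.00399), and LHB1B1 (AT2G34430) by -2.61 ± 0.48 (SE, adjusted p = 0.00489), the latter with 0.0773 without suspensor array 3. PSAD-1 (AT4G02770), on the stromal side of photosystem I, differed by -2.78 ± 0.64 (SE, adjusted p = 0.0242), with 0.207 without suspensor array 3. GLK2 and the gene listed as GPRI1, the transcription factors that drive these genes, did not pass the test, with differences of -0.55 and -0.23.

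The difference was measured against whole-embryo arrays that the other late globular cell types share, so the groups' values are given side by side. The mean level of the 30 genes was 5.70 ± 0.11 in the whole embryo (SD, n = 4), 3.93 ± 0.28 in the suspensor (n = 3), 4.27 ± 0.20 in vascular cells (n = 4), 4.26 ± 0.08 in ground tissue cells (n = 3) and 3.71 ± 0.18 in the QC group (n = 3). Every array of the 4 cell types lay below every whole-embryo array. Against the whole embryo, limma called 0.787% of all loci in VSC_LG, 0.449% in GSC_LG and 1.5% in QC_LG, and 0.374%, 0.133% and 0.765% lower. Of the 30 genes, 11 fell in VSC_LG, 10 in GSC_LG and 20 in QC_LG, with medians of -1.53, -1.34 and -2.13. When the suspensor was compared directly with the mean of the other 3 cell types, 0 of the 30 passed the test and the median was -0.18. RBCS1B had a difference of -1.64 there, with an adjusted p of 0.24. The fall against the whole embryo was thus not shown to be particular to the suspensor.

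**Figure D2:**
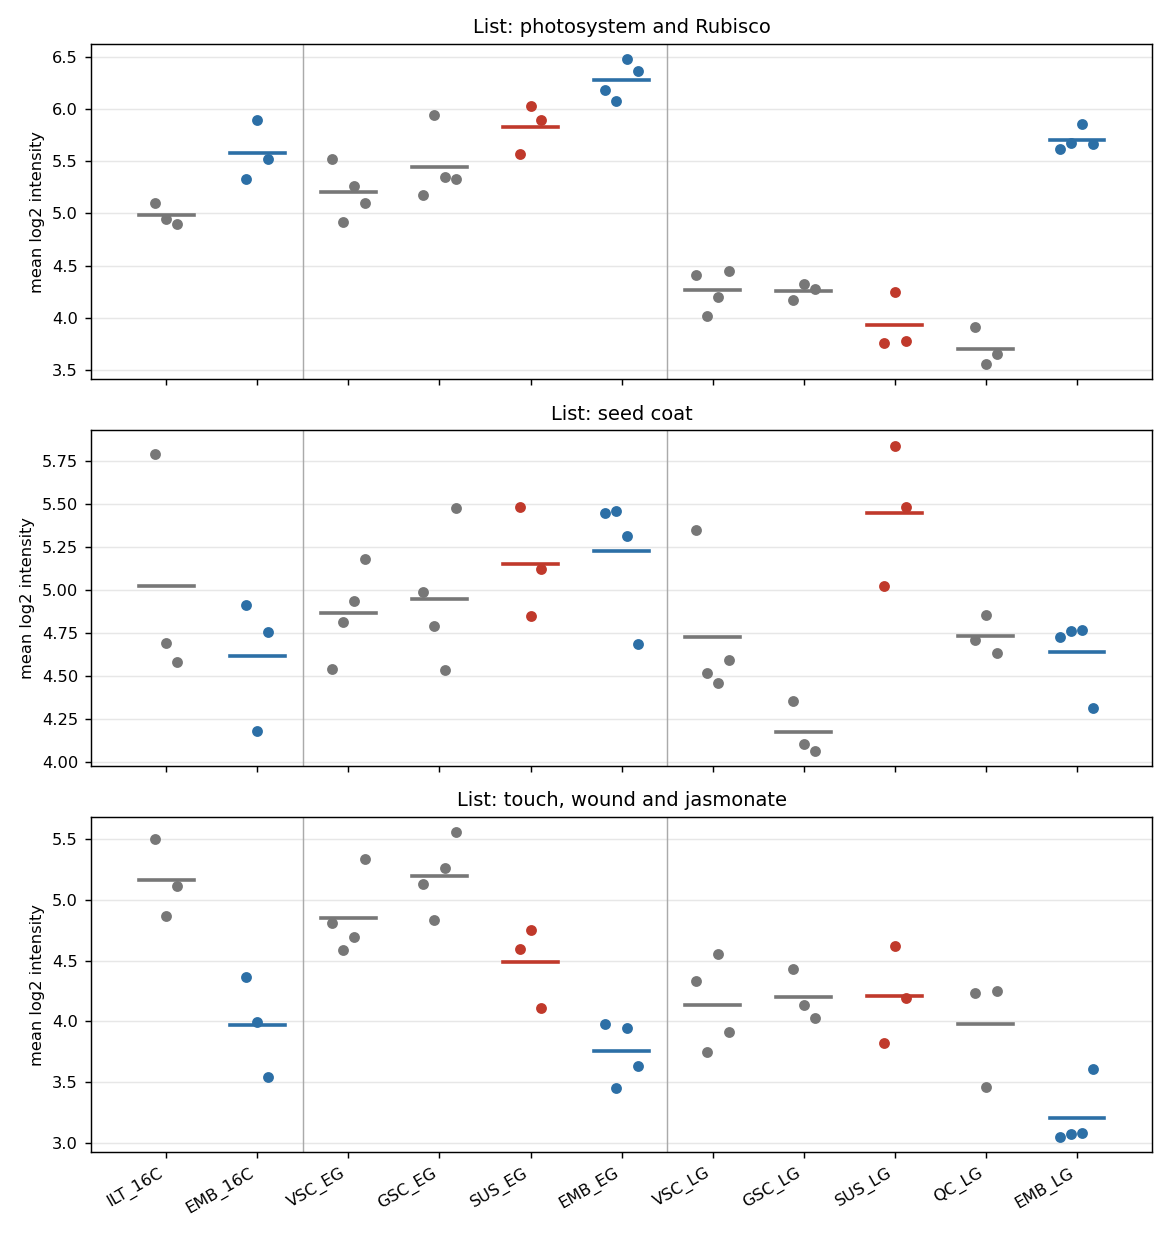
Mean log2 intensity of 3 gene lists on each of the 38 arrays, by group, with vertical lines between the 3 stages, red for the suspensor, blue for the whole embryo, grey for other cells and a bar at each group's mean. The photosystem and Rubisco list lies at 3.76 to 4.25 in SUS_LG and 5.62 to 5.86 in EMB_LG; the seed coat list lies at 5.02 to 5.84 and 4.32 to 4.77.

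Other plastid pathways moved the same way in fewer of their genes. Of 20 genes of chlorophyll synthesis, 5 fell and 0 rose, against 0.428% of all loci called lower, with a median of -0.41. CHLM (AT4G25080), the methyltransferase of the pathway, read 3.12, 3.34 and 3.00 on the suspensor arrays and 5.24, 4.85, 5.57 and 5.25 on the whole-embryo arrays, a difference of -2.08 ± 0.36 (SE, adjusted p = 0.00232). The other 4 that fell were CRD1 (AT3G56940), GUN4 (AT3G59400), PORB (AT4G27440) and LIL3:2 (AT5G47110), by differences of -1.60, -1.41, -2.0 and -1.46, and with 0.239 without suspensor array 3, 0.182 without suspensor array 2, 0.192 without suspensor array 3 and 0.269 without suspensor array 2. EMB3143 (AT5G58250), a gene needed for the cyclase step of that pathway, read 3.63, 3.39 and 3.15 against 4.86, 6.73, 6.09 and 6.05, a difference of -2.55 ± 0.45 (SE, adjusted p = 0.00257). Of 14 Calvin cycle genes, 1 fell, the aldolase FBA2 (AT4G38970) at -2.05 ± 0.39 (SE, adjusted p = 0.0061), with 0.0815 without suspensor array 3, while all 14 differences lay below 0 and the median was -0.90. PSRP4 (AT2G38140), a plastid ribosomal protein gene, fell at a difference of -2.42, with 0.0596 without suspensor array 2, and 16 of 17 such genes lay below 0. EMB1303 (AT1G56200), needed for plastid development, differed by -3.06 ± 0.68 (SE, adjusted p = 0.019), with 0.0892 without whole-embryo array 3. Against the same whole-embryo arrays, the chlorophyll median was -0.46 in VSC_LG, -0.32 in GSC_LG and -0.75 in QC_LG. The Calvin cycle median was there -0.79, -0.995 and -0.91. The plastid ribosomal median was -1.03 in the suspensor and -1.34, -0.26 and -1.22 in those cell types. Against the mean of those cell types, 0 genes of these families were called, with medians of -0.04, -0.19 and -0.21. The falls were thus not shown to be particular to the suspensor. These families were chosen after their values were seen.

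Nitrogen assimilation, which reduces nitrate to ammonium and builds it into amino acids, had 4 falls (0.428% of all loci fell) and 0 rises among 8 genes that were likewise chosen after their values were seen. GS2 (AT5G35630), the plastid glutamine synthetase, read 2.98, 3.16 and 2.45 on the suspensor arrays and 4.86, 4.78, 5.45 and 5.34 on the whole-embryo arrays, a difference of -2.25 ± 0.35 (SE, adjusted p = 0.000579). The nitrate reductases NIA1 (AT1G77760) and NIA2 (AT1G37130) differed by -2.04 ± 0.45 (SE, adjusted p = 0.0184) and -1.60 ± 0.36 (SE, adjusted p = 0.0206), and GLU1 (AT5G04140), a glutamate synthase, by -1.25 ± 0.32 (SE, adjusted p = 0.0419). The calls of NIA1, NIA2 and GLU1 ended without single arrays, with 0.0989 without whole-embryo array 3, 0.107 without whole-embryo array 3 and 0.187 without suspensor array 2. GLU2 (AT2G41220), another glutamate synthase, differed by 1.11 ± 0.40 (SE, adjusted p = 0.234) and did not pass the test. Against the mean of the other late globular cell types, 0 of the 8 passed and the median was 0.22.

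Among the remaining falls, VIM1 (AT1G57820), a protein that reads methylated DNA and helps to keep CG methylation, read 3.69, 2.93 and 2.43 on the suspensor arrays and 6.19, 4.89, 6.16 and 6.95 on the whole-embryo arrays. Its difference was -3.03 ± 0.60 (SE, adjusted p = 0.00797), with 0.0698 without suspensor array 3. It was the only called gene among 20 of DNA methylation and Polycomb, whose median was -0.12. PMH1 (AT3G22310), an RNA helicase of mitochondria, differed by -2.95 ± 0.61 (SE, adjusted p = 0.011), with 0.111 without suspensor array 2. PAN (AT1G68640), a bZIP factor of floral meristems, read 2.56, 1.73 and 2.75 against 5.55, 3.89, 5.69 and 4.99 and differed by -2.68 ± 0.56 (SE, adjusted p = 0.0111), with 0.111 without suspensor array 2. Of 24 genes for extensins, other wall proteins and the ER body, a defence compartment, 3 fell and 0 rose, against 0.428% of all loci called lower, with a median of -0.27 that became -0.51 without suspensor array 2. They were EXT4 (AT1G76930), an extensin, at -3.05 ± 0.61 (SE, adjusted p = 0.00825); PBP1 (AT3G16420), which binds the ER body glucosidase, at -2.99 ± 0.56 (SE, adjusted p = 0.00573); and CWLP (AT3G22120), a wall linker protein, at -2.87 ± 0.71 (SE, adjusted p = 0.0389). The highest adjusted p with 1 array left out was 0.0911 without suspensor array 3, 0.0698 without suspensor array 3 and 0.184 without suspensor array 1. Against the same whole-embryo arrays, 4 of the 24 fell in VSC_LG, 3 in GSC_LG and 7 in QC_LG (0.374%, 0.133% and 0.765% of all loci). There 6, 6 and 0 rose (0.413%, 0.316% and 0.733%). Against the mean of those cell types, 0 were called in the suspensor and the median was -0.05. The falls of this list were thus not shown to be particular to the suspensor. Among falls with no symbol, AT2G45180 read 2.98, 2.01 and 1.39 against 5.93, 5.80, 6.12 and 6.05 and differed by -3.85 ± 0.56 (SE, adjusted p = 0.000241). AT1G12015, AT5G42530 and AT5G17900 differed by -4.84, -3.92 and -3.31, with 0.0987 without suspensor array 2, 0.219 without suspensor array 2 and 0.157 without suspensor array 2.

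Genes of the cell cycle lay mostly lower in the suspensor, but few passed the test. Of 22 genes of G2 and M phase, 1 fell, against 0.428% of all loci called lower, 21 lay below 0 and the median was -0.62. In VSC_LG, GSC_LG and QC_LG against the same whole-embryo arrays the median was -0.27, 0.55 and -0.45. Against the mean of those cell types, 0 were called in the suspensor and the median was -0.61. The list's mean ran from 2.26 to 2.75 on the suspensor arrays and overlapped the whole-embryo arrays, at 2.63 to 3.67. PLE (AT5G51600), a microtubule bundler of the dividing cell, read 2.47, 1.80 and 1.85 on the suspensor arrays and 4.07, 2.97, 3.78 and 3.56 on the whole-embryo arrays, a difference of -1.55 ± 0.32 (SE, adjusted p = 0.00962), with 0.0873 without suspensor array 2. CYCB1;3 (AT3G11520), a mitotic cyclin, differed by -1.31 ± 0.39 (SE, adjusted p = 0.116) and did not pass. Of 19 genes of S phase, 1 fell and the median was -0.60, which became -0.26 without whole-embryo array 4. In VSC_LG, GSC_LG and QC_LG it was -0.49, 0.54 and -0.44, and against their mean 0 were called and it was -0.41. The list's mean ran from 2.97 to 3.40 on the suspensor arrays and from 3.09 to 4.32 on the whole-embryo arrays. The gene that fell was the replication helicase subunit MCM6 (AT5G44635) at -1.33 ± 0.34 (SE, adjusted p = 0.0457), with 0.265 without suspensor array 2. Its partner MCM2 (AT1G44900) differed by -1.28 ± 0.40 (SE, adjusted p = 0.137). Outside the lists, CYCD3;2 (AT5G67260), CYCA3;4 (AT1G47230), TOPII (AT3G23890) and ATK5 (AT4G05190), all genes of dividing cells, differed by -1.99, -1.51, -1.61 and -1.48, with 0.184 without suspensor array 2, 0.305 without suspensor array 2, 0.2 without suspensor array 2 and 0.189 without suspensor array 2. These 4 were picked after their values were seen.

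Markers of the embryo proper did not pass the test one by one. Over all loci 0.967% were called, so short lists would hold few calls or none at that share. A count of 0 therefore says little about the lists below. Of 20 genes of the apical and shoot region, 0 were called, 18 lay below 0 and the median was -0.51, with PHB (AT2G34710), a leaf polarity gene, at -1.17 ± 0.48 (SE, adjusted p = 0.327) and KAN (AT5G16560), its opponent, at -1.13 ± 0.49 (SE, adjusted p = 0.369). The lists for vascular cells (14 genes), ground tissue (7), the root meristem (13) and the protoderm (11) had 0 called genes and medians of -0.19, -0.36, -0.41 and 0.17. PDF1 (AT2G42840), which marks the outer cell layer, read 6.34, 4.78 and 5.61 on the suspensor arrays and 7.79, 6.65, 6.75 and 8.04 on the whole-embryo arrays, a difference of -1.73 ± 0.49 (SE, adjusted p = 0.0841) between groups that did not overlap. The protoderm list as a whole did not lie lower, with 7 of its 11 genes above 0. HDG12 (AT1G17920), a homeobox gene of the same layer, was not on the list and was picked after its values were seen. It fell by 1.96 on the log2 scale (adjusted p = 0.0307), with 0.28 without suspensor array 2. Auxin transport and synthesis (18 genes) and auxin response (34) had 0 called genes, with medians of -0.20 and -0.13; AUX1 (AT2G38120), the auxin importer, differed by -1.56 ± 0.47 (SE, adjusted p = 0.114). Of 25 genes of gibberellin and brassinosteroid, 1 fell, against 0.428% of all loci called lower. It was BSK2 (AT5G46570), a brassinosteroid signalling kinase, at -1.17 ± 0.26 (SE, adjusted p = 0.0206), with 0.119 without suspensor array 3. Of 18 genes of programmed cell death and autophagy, 0 were called and the median was 0.20; BFN1 (AT1G11190), a nuclease of dying cells, differed by -0.65 and MC4 (AT1G79340), a metacaspase, by 0.71. Of 16 seed maturation genes, 0 were called, with FUS3 (AT3G26790) at 1.42 ± 0.47 (SE, adjusted p = 0.177).

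**Figure D3:**
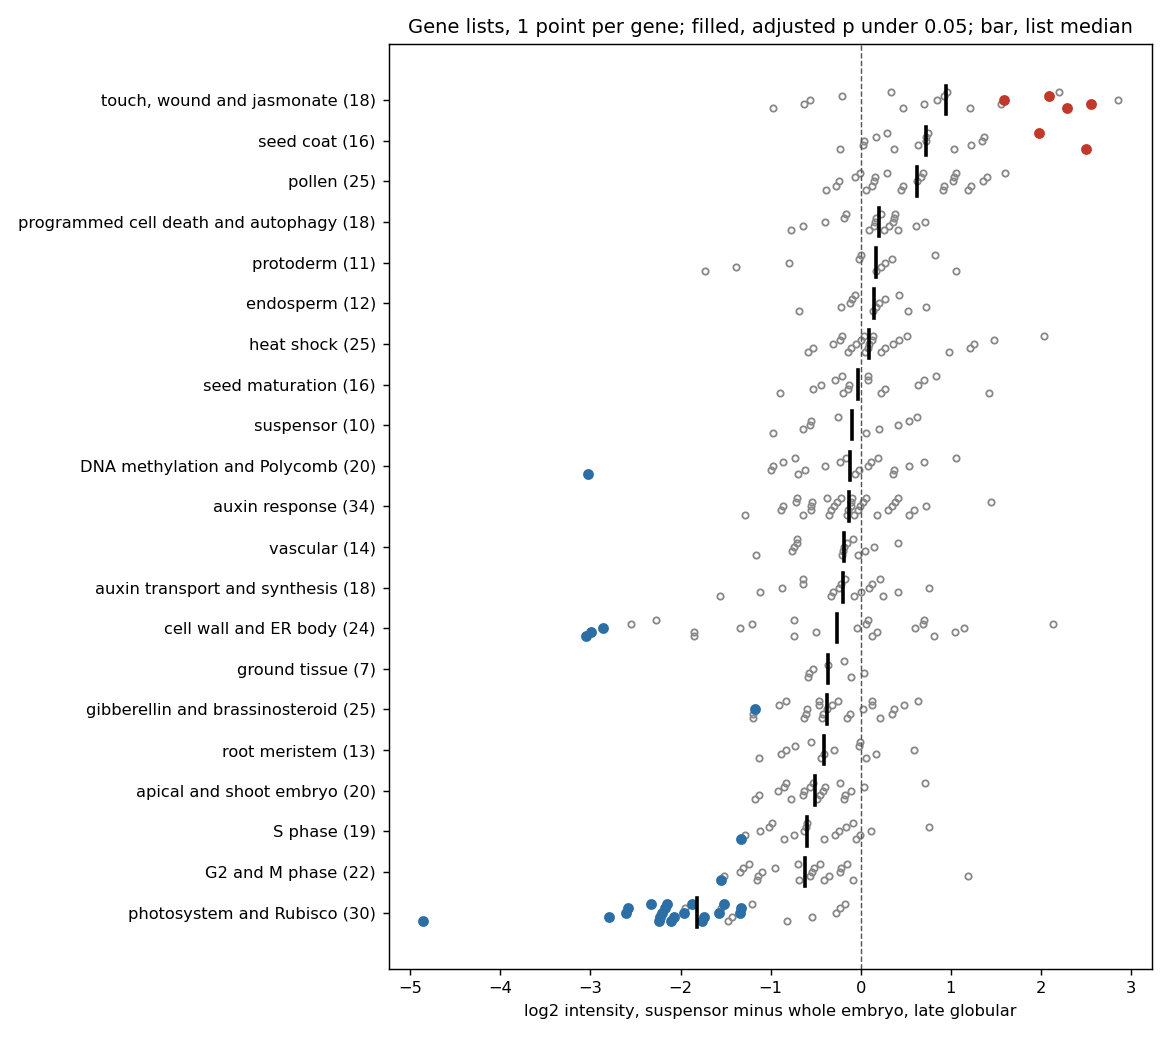
Log2 difference, suspensor minus whole embryo at the late globular stage, for every gene of 21 lists, with 1 point per gene, filled where the adjusted p is under 0.05 and a bar at each list's median. The photosystem and Rubisco list lies at a median of -1.82 with 20 filled points of 30, and the suspensor list at -0.10 with 0 of 10.

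The seed coat is the maternal tissue that makes flavonoid pigments around the embryo. Of 16 seed coat genes, 2 rose and 0 fell against the whole embryo, where 0.539% of all loci rose, 15 lay above 0 and the median was 0.73. The median was 0.39 without suspensor array 2 and 1.01 without suspensor array 1. TT8 (AT4G09820), a bHLH regulator of pigment synthesis, read 4.78, 6.03 and 5.69 on the suspensor arrays and 2.66, 4.03, 3.36 and 4.02 on the whole-embryo arrays, a difference of 1.98 ± 0.46 (SE, adjusted p = 0.0265). TT2 (AT5G35550), its MYB partner, read 5.73, 6.50 and 5.90 against 3.83, 4.28, 3.02 and 3.06, a difference of 2.50 ± 0.63 (SE, adjusted p = 0.0407). Neither gene's arrays overlapped between the groups. Both calls ended without single arrays, with 0.197 without suspensor array 2 and 0.226 without suspensor array 2. The list's brightest genes over the 7 arrays were TT4 (AT5G13930), chalcone synthase, with 8.49, 9.62 and 9.45 against 8.28, 8.73, 8.95 and 8.28, and LDOX (AT4G22880), leucoanthocyanidin dioxygenase, with 8.82, 9.45 and 8.53 against 7.58, 7.41, 7.79 and 7.50. TT4 overlapped between the groups, and LDOX did not but missed the threshold, at 1.36 ± 0.40 (SE, adjusted p = 0.109). DFR (AT5G42800), dihydroflavonol reductase, with 8.04, 8.95 and 8.75 against 7.36, 7.54, 7.56 and 6.99, did not overlap either and differed by 1.22 ± 0.43 (SE, adjusted p = 0.221). Summed over the list on the linear scale, intensity ran from 1501 to 2679 on the suspensor arrays and from 832 to 1281 on the whole-embryo arrays. Of 17 genes of flavonoid and phenylpropanoid synthesis, some of them on the seed coat list and all chosen after their values were seen, 0 were called, all 17 lay above 0 and the median was 0.74.

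The suspensor was next compared with the mean of the other 3 late globular cell types, captured in the same way. This test called 18 loci (0.0647% of all loci), 17 higher (0.0611%) and 1 lower (0.00359%), and 2140 loci had an unadjusted p under 0.05. It rested on suspensor arrays that also served in the first comparison, so that the 2 results are not independent. TT8 had the smallest adjusted p, at 2.67 ± 0.40 (SE, adjusted p = 0.00284). Its level was 5.50 ± 0.65 in the suspensor (SD, n = 3), 2.80 ± 0.82 in vascular cells (n = 4), 2.82 ± 0.47 in ground tissue (n = 3) and 2.86 ± 0.68 in the QC group (n = 3). By adjusted p among loci with a symbol, SYTC followed at 1.97 ± 0.32 (SE, adjusted p = 0.00632). Then came C4H (AT2G30490), the cinnamate hydroxylase that feeds flavonoid synthesis, at 1.77 (adjusted p = 0.0122) and DFR at 1.86 (adjusted p = 0.035). Of the seed coat list, 2 genes rose, TT8 and DFR, 14 lay above 0 and the median was 0.91, while the list's mean was 5.45 ± 0.41 in the suspensor, 4.73 ± 0.42 in VSC_LG, 4.17 ± 0.16 in GSC_LG and 4.73 ± 0.11 in QC_LG. The locus with no symbol AT5G63085 rose by 3.9 (adjusted p = 0.0188), and the only fall was AT3G14600, at -2.28 (adjusted p = 0.0188). The count turned on the suspensor arrays: 0 loci were called without suspensor array 2, 5 without array 3 and 55 without array 1, and 11 without QC_LG array 1. With only the arrays of these 4 groups in the fit, 0 loci were called. Whether seed coat RNA was carried along with suspensor nuclei was not tested.

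Other tissues that surround the embryo or reach it at pollination were checked in the same way. Of 25 pollen genes, 0 were called, 20 lay above 0 and the median was 0.62, which became 0.35 without suspensor array 1. VGD1 (AT2G47040) and PGA4 (AT1G02790), pectin-modifying enzymes of the pollen tube, were its brightest genes, with 7.22, 6.59 and 6.40 against 7.56, 6.03, 4.19 and 5.03 and 7.44, 6.55 and 6.26 against 6.31, 5.19, 4.32 and 5.57. Both genes overlapped between the groups. The list's mean ran from 3.56 to 4.27 in the suspensor and from 2.89 to 3.61 in the whole embryo, and it reached 4.99 ± 1.08 in the QC group. Of 12 endosperm genes, 0 were called, with a median of 0.15 (-0.060 without suspensor array 2) and means of 2.36 to 2.80 and 2.36 to 2.50, near the array medians. Its brightest genes over the 7 arrays, the bHLH factor ICE1 (AT3G26744) and IKU1 (AT2G35230), a regulator of endosperm growth, differed by -0.68 and 0.52, and RGE1 (AT1G49770), which has the smallest p of the list and works with ICE1, by 0.72. The part of such RNA in any difference was not tested.

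The last comparison set the suspensor-minus-embryo difference of the late globular stage, at 100 h, against that of the early globular stage, at 81 h. Of 27826 loci, 2 were called, both lower at the later stage (0.00719%), and 1793 had an unadjusted p under 0.05. For RBCS1B the difference was 0.22 at 81 h and -4.86 at 100 h, a change of -5.08 ± 0.80 (SE, adjusted p = 0.00979). Its level in the suspensor was 8.07 ± 0.34 at 81 h and 2.83 ± 1.54 at 100 h (SD, n = 3 each), while the whole embryo stayed at 7.85 ± 0.57 and 7.68 ± 0.58 (n = 4 each). Other captured cells were lower at 100 h too. RBCS1B ran from 6.48 to 8.12 in VSC_EG and 4.84 to 6.28 in VSC_LG, and from 6.26 to 8.01 in GSC_EG and 5.19 to 5.84 in GSC_LG. In QC_LG it ran from 1.55 to 3.23. For HSP70 (AT3G12580), a heat shock chaperone, the difference was 4.03 at 81 h and -0.31 at 100 h, a change of -4.34 ± 0.77 (SE, adjusted p = 0.0376). Here it was the suspensor at 81 h that stood high, at 7.22 ± 0.41, against 3.33 ± 0.57 at 100 h. The level was not the suspensor's alone: HSP70 ran from 5.15 to 7.34 in GSC_EG, from 5.51 to 7.05 in VSC_LG and from 4.96 to 6.09 in GSC_LG, while VSC_EG and QC_LG stayed under 4. Of further genes, CP12-2 (AT3G62410), a regulator of the Calvin cycle, differed between stages by -3.07 and DIC2 and SZF1 by 2.00 and 2.52. These did not pass (adjusted p = 0.0706, 0.0988 and 0.0988).

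Of the 30 photosystem and Rubisco genes, 0 were called in the suspensor at 81 h (0.198% of all loci were called, 0.0719% lower) and the median was -0.33; its change to 100 h had a median of -1.31, with RBCS1B as the 1 gene called. The list's mean in the suspensor was 5.83 ± 0.24 at 81 h and 3.93 ± 0.28 at 100 h, and in the whole embryo 6.27 ± 0.18 and 5.70 ± 0.11. It was also lower at 100 h in other captured cells, 5.20 ± 0.25 and 4.27 ± 0.20 in vascular cells and 5.45 ± 0.34 and 4.26 ± 0.08 in ground tissue cells at the 2 stages. Of 25 heat shock genes, 7 were higher in the suspensor at 81 h (0.126% of all loci) and 0 at 100 h, where the median was 0.09. Whether most of these genes changed between stages was not shown, since HSP70 was the 1 gene of that list to pass the test of the change. The 2 stage calls leaned on single arrays: 0 loci were called without suspensor array 1 of 100 h, 1 without suspensor array 2 and 1, a rise, without suspensor array 3. The count was 7 without SUS_EG array 1, 5 without SUS_EG array 2, and 1 without SUS_EG array 3, EMB_EG array 4 or EMB_LG array 1.

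**Figure D4:**
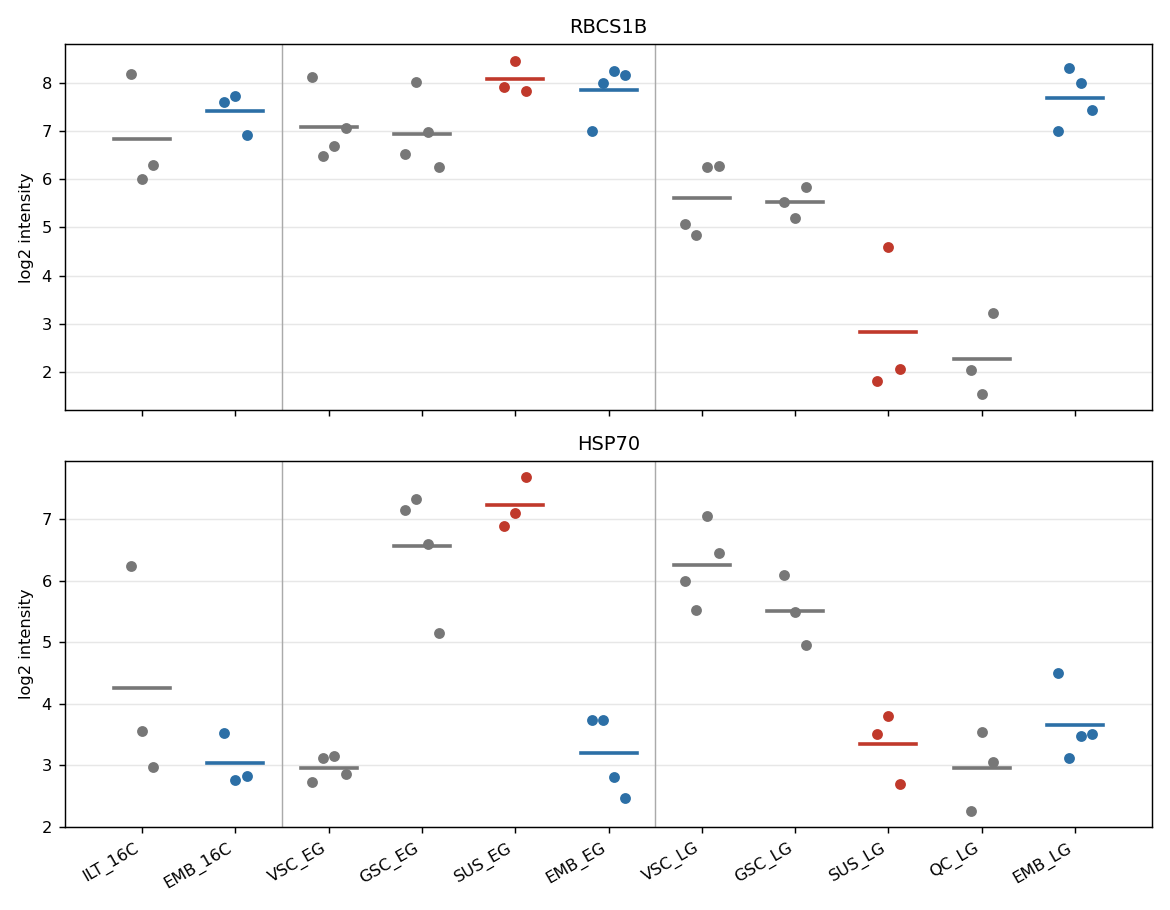
Log2 intensity of RBCS1B and HSP70 on each of the 38 arrays, by group, with vertical lines between the 3 stages, red for the suspensor, blue for the whole embryo, grey for other cells and a bar at each group's mean. RBCS1B stands at 8.07 ± 0.34 in SUS_EG and 2.83 ± 1.54 in SUS_LG (mean ± SD); HSP70 stands at 7.22 ± 0.41 and 3.33 ± 0.57.

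Transcripts of the organelle genomes lay lower in the suspensor, with few calls. Of 14 plastid genome loci, 2 fell, against 0.428% of all loci, and the median was -0.77; in VSC_LG, GSC_LG and QC_LG against the same whole-embryo arrays it was -1.13, -0.16 and -1.77. Of 92 mitochondrial genome loci, 3 fell, against the same 0.428%. The median was -0.70, and in those 3 cell types it was -0.48, 0.65 and -0.96. Of 130 nuclear loci with names beginning AT2G07, a stretch that carries a copy of mitochondrial DNA, 6 fell, against 0.428% of all loci. Their median was -0.52, and -0.30, 0.35 and -0.69 in those cell types. Against the mean of those cell types, 0 loci of the plastid, mitochondrial and AT2G07 sets were called, with medians of -0.22, -0.55 and -0.35. The falls were thus not shown to be particular to the suspensor. These sets of loci were chosen after their values were seen. Probes cannot always tell these copies apart: 176 loci on the array had values identical to another locus on all 38 arrays, among them 37 mitochondrial, 9 plastid and 34 AT2G07 loci, and 3 of the 269 called loci only repeat another called locus.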

How the data were processed

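The deposited values are 1 intensity per locus and array on a linear scale, which the authors made with RMA, per the submitters' processing notes; neither its version nor the probe set definition is stated there. RMA is meant to set arrays to a common distribution of signal, but the deposited values differed in spread. The interquartile range of log2 values ran from 1.034 to 2.103 over the 38 arrays. It was 1.316, 1.595 and 1.307 on suspensor arrays 1, 2 and 3 of the late globular stage. On the whole-embryo arrays of that stage it ran from 1.236 to 1.422, so suspensor array 2 was the widest of both groups. A change that touched most loci may still not show. Before hybridisation the nuclear RNA was amplified and labelled, per the labels' protocols. From there, values were taken to log2 with no added constant. limma 3.58.1 in R 4.3.3 was fitted to all 38 arrays with 1 mean per group for 11 groups, and p-values were two-sided and adjusted by the Benjamini-Hochberg method over all 27826 loci. A locus was called at an adjusted p under 0.05. The code was tested on simulated data.

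Of the loci, 27241 matched a gene table of TAIR10.1 and 10556 of these had a symbol, which is the name used here. Genes named are the 14 largest called rises and falls with a symbol and non-overlapping arrays, the 4 largest each without one, all suspensor markers, up to 6 called genes of each other list (filled to 2 by p), the 2 brightest of the endosperm, seed coat and pollen lists, and the 4 of smallest p with a symbol in each further comparison. Others were added after their values were seen. The comparison, the 21 lists and the genes were chosen with earlier results of these data known. The number of arrays limits the precision. Alternatives changed the normalization, the filter on dim loci, array weights, the prior variance, the log scale, a fold threshold, the arrays fitted, the replicate block, a covariate for array spread, and each array in turn.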

Additional observations from a re-analysis of the deposited data

Results flagged for a closer look

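In the 4 whole-embryo arrays of the late globular stage, 194 values (named genes and list means) were examined for an array far from the others, and 13 passed the 95% critical value, where chance gives about 1 in 20. Array 4 gave 7 of the 13. It was low for the extensin EXT4 (5.05, others 6.55 to 6.63), the antenna gene LHCB3 (5.17, others 6.07 to 6.21), the locus AT5G42530 (4.51, others 7.07 to 7.50) and the mean of the seed coat list (4.32, others 4.73 to 4.77). It was high for CAF1a, a deadenylase (4.96, others 2.56 to 2.86), for DGK2 (4.07, others 3.17 to 3.29) and for the mean of the touch, wound and jasmonate list (3.61, others 3.04 to 3.08). Array 3 was high for PSAF (7.88, others 6.80 to 6.96) and for the antenna gene LHCB4.2 (5.26, others 3.93 to 4.15). Array 1 was low for PSAG (5.81, others 6.80 to 6.87) and for the mean of the WRKY factors (2.36, others 2.49 to 2.52). Array 2 was low for PUM12 (1.91, others 3.20 to 3.27) and high for NTM1 (3.33, others 2.49 to 2.55). The falls of LHCB3 and LHCB4.2 and the rise of CAF1a in the suspensor had adjusted p of 0.0342, 0.0132 and 0.0389, which became 0.257 without suspensor array 3, 0.0939 without suspensor array 2 and 0.38 without suspensor array 2. Suspensor groups hold 3 arrays and were not examined in this way.

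Between the early and late globular stages, the suspensor's difference from the whole embryo changed for RBCS1B by -5.08 and for HSP70 by -4.34 on the log2 scale, as tested by an interaction term in limma.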

How the results depend on the processing

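Of 103 called genes followed through every alternative, 20 kept their call in every alternative and 45 in every alternative that kept all arrays; in 2385 recalculated gene values 420 calls were lost, 6 were gained and no called gene changed sign. For suspensor against whole embryo the 269 calls became 156 with only the arrays of both groups, and 54 (without suspensor array 2) to 232 (without suspensor array 1) with 1 array left out; the other alternatives gave 187 to 357. Against the other late globular cell types 18 loci were called, and 28 after quantile normalization, 33 with array spread as a covariate, 0 with only those arrays, and 0 to 55 with 1 array left out. Between stages the 2 calls became 1 with arrays centred on their median or only those arrays, 5 with array weights or log2(value + 4), and 0 to 7 with 1 array left out. For genes not called between suspensor and whole embryo, the sign of that difference turned for ARF9 (-0.011 with the replicate block, -0.039 with array spread as a covariate, -0.12 to 0.21 with 1 array left out), WOX9 (HB-3, -0.66 to 0.85), BON2 (-0.18 to 0.27), HSP70 (-0.54 to 0.0093) and SSP (-0.59 to 0.037), each with 1 array left out. The cause of these changes was not tested. Same-numbered suspensor and whole-embryo arrays did not deviate together (r = -0.0024, -0.0323 and 0.039). That gave no sign of pairing by number, but such correlations cannot show that these arrays were prepared apart. With the replicate block the 3 counts were 242, 21 and 2. Several lists had levels near the array medians. In SUS_LG the suspensor, endosperm, root meristem, and G2 and M phase lists had means of 2.53, 2.55, 2.36 and 2.47. Whether low signal limited such lists was not tested.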

Other observations

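The pollen and heat shock lists had no called gene in the late globular suspensor and had some in other groups. Of 25 pollen genes, 10 were higher in the QC group than in the whole embryo of the same stage (0.733% of all loci called higher), 2 in vascular cells (0.413%) and 0 in ground tissue cells (0.316%). Of 25 heat shock genes, 5 were higher in vascular cells and 7 in the early globular suspensor, against its own whole embryo. These comparisons within the late globular stage share the whole-embryo arrays, and the differences between the counts were not tested.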
